A study of Caenorhabditis elegans with 2 samples.

Results

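The X chromosome of Caenorhabditis elegans carries 276 of the 612 nuclear tRNA genes in the Ensembl annotation of genome build WBcel235 (ce11), 45.1% of the total, and EFL-1 peaks were examined at all 276. EFL-1 belongs to the E2F transcription factors. Strain YL479, in which EFL-1 is fused at its C-terminus to GFP and FLAG, was used as whole young adult hermaphrodites, and sonicated chromatin was pulled down with an antibody to GFP. There was 1 group of 2 biological replicates, so the comparisons run between tRNA genes within that group and not between conditions. The tagged protein came from a stable insertion, the whole worm mixes germline and body cells, and control libraries were not analysed here.

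Membership follows from annotated type and chromosome, although the set was proposed with earlier results of these data known. A gene was called bound where a summit of the authors' pooled list of reproducible peaks lay in the gene or within 100 bp of either end. That list had passed a threshold on the irreproducible discovery rate, a measure of how well peaks hold their order between replicates, and had 2179 nuclear peaks. Each replicate also had a longer list of 30000 candidate peaks, and the pooled reads had another. The authors gave each peak a signal value, whose scale is not stated. Values were set side by side only within 1 list. The lists hold no read counts, so depth is unknown.

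Transfer RNA genes are short and are transcribed by RNA polymerase III, not by the polymerase II that serves the protein-coding genes at which E2F factors are mostly studied. Their promoter lies inside the gene, in the A box near the start and the B box near the end. The transcription factor TFIIIC reads both boxes and TFIIIB is then placed just upstream. Many worm tRNA genes are exact copies of each other, and the X chromosome holds a large share of them, scattered between coding genes, in introns and in small groups.

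EFL-1 summits lay at most, but far from all, tRNA genes of the X chromosome. Of the 276 genes, 154 were bound (55.8%, 95% Wilson interval 49.9 to 61.5%), while 48.5% of the 336 autosomal tRNA genes and 51.8% of all nuclear tRNA genes were bound. The difference of X from the autosomes was 7.29 percentage points with an interval of -0.67 to 15.1, which includes 0. Among windows of the same length laid end to end along the X chromosome, 0.375% held a summit. The 154 genes were reached by 147 peaks, and these were 60.2% of the 244 reproducible peaks on the X chromosome. Intervals on shares cover counting error only, since genes of 1 pair of samples are not replicates of a condition.

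The following genes are shown because the results turn on them: the gene with the strongest peak, a gene of the alanine family in which every X member was bound, the strongest member of the largest proline family, the only bound member of a histidine family, and members of leucine and arginine families whose identical copies all lie on X. Sequences are from RefSeq (WBcel235), 5′ to 3′ along the gene. Capitals mark an exact match to the B box core GTTCGANNC; genes without an exact match are in lower case throughout.
C04A11.t1 (tRNA-Leu, chrX:13665555-13665673, + strand): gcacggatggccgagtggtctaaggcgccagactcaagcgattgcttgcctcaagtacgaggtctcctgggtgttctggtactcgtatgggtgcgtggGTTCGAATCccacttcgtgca
F15G9.t2 (tRNA-Ala, chrX:9743747-9743818, + strand): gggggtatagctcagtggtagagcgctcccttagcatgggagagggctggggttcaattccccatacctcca
H06A10.t1 (tRNA-Pro, chrX:13511970-13512041, - strand): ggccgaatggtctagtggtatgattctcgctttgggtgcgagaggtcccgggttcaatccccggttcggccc
C06G1.t1 (tRNA-His, chrX:16634830-16634901, - strand): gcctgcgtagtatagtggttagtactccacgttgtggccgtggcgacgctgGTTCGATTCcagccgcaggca
C04E7.t1 (tRNA-Leu, chrX:353255-353336, - strand): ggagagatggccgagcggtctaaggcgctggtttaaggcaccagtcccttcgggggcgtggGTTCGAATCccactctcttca
F09B9.t1 (tRNA-Arg, chrX:10145156-10145228, + strand): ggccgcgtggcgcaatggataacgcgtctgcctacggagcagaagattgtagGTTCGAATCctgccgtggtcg

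The strongest peak at an X tRNA gene was at C04A11.t1, an isolated intergenic leucine tRNA gene with an intron and no identical copy. Its signal was 107 in replicate 1, 81.7 in replicate 2 and 185 in the pooled list, and the peak stood 304th among the nuclear reproducible peaks. R04D3.t2, a valine tRNA gene, had 100.4 in replicate 1, 70.6 in replicate 2 and 166 in the pooled list. Both genes ranked among the 500 strongest candidates of each replicate. C33G3.t2, a lysine tRNA gene, had 122 in replicate 1, 31.1 in replicate 2 and 151 in the pooled list. Its rank was 299 in replicate 1 and 1109 in replicate 2, so replicate 1 carried more of its standing. H06A10.t1 went the other way, with rank 1046 in replicate 1 and 305 in replicate 2, and a pooled signal of 123. The other genes among the strongest 12 were the alanine tRNA genes F15G9.t1, F15G9.t2 and T07H6.t2, M02F4.t2 for glutamate, M02F4.t1 for glycine, R11.t1 for tyrosine, C42D8.t1 for isoleucine and ZK899.t1 for proline. Their pooled signals lay between 123 and 159. F15G9.t1 and F15G9.t2 shared 1 peak, as did M02F4.t1 and M02F4.t2. The summit lay 94 bp upstream of F15G9.t2 and of M02F4.t2. F15G9.t2 had no candidate in replicate 2, and M02F4.t2 had none in replicate 1.

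The 154 bound genes of X had pooled signals of 45.6 to 185 with a median of 72.6 (interval 68.0 to 79.8). The 163 bound autosomal genes had a median of 67.4 (interval 63.2 to 72.2). X peaks at no tRNA gene had a median of 66.0 and all nuclear peaks at no tRNA gene 83.6. Signals at X tRNA genes were thus in the range of other X peaks, and few were among the strongest in the genome: with the nuclear reproducible peaks cut into 4 equal parts by signal, 8 of the 147 peaks were in the strongest part, 50 in the next, 50 in the one after and 39 in the weakest. Their median rank was 1226. The share of tRNA genes bound was 55.8% on X, against 47.0% on chromosome I, 54.4% on II, 60.9% on III, 49.3% on IV and 34.6% on V, so X stood inside the range of the autosomes.

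Just inside the threshold were C16B8.t1 (proline) and C30E1.t1 (glycine), each at 45.6, then K08H2.t1 (threonine) at 45.7, C28G1.t3 (glycine) at 47.2 and C02B4.t1 (isoleucine) at 47.9. Just outside were the best pooled candidates of C25F6.t3 (methionine) at 45.3, T26C11.t1 (glutamate) at 45.2, D1009.t2 (leucine) at 45.1, and C16H3.t1 and C16H3.t2 (valine), which share 1 candidate at 45.1. Signal therefore ran on without a gap across the threshold.

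Lack of a call was often not lack of a candidate. Of the 122 unbound genes, 60 had a pooled candidate (49.2%), with signals of 11.5 to 45.3 and a median of 32.9. Of the 173 unbound autosomal genes, 101 had one (58.4%). Of the other 62, 33 had a candidate in at least 1 replicate, and 29 had none in any list. In all, 247 of the 276 X genes (89.5%) held a candidate in some list, against 88.7% of autosomal tRNA genes and 11.5% of equal windows along X. Some had a strong candidate in a replicate and none in the pooled list. R01H5.t1, a threonine tRNA gene, had a signal of 95.3 and rank 443 in replicate 1 and no candidate in replicate 2. C26G2.t1, an isoleucine tRNA gene in an intron of slt-1, which encodes a Slit guidance protein, had rank 976 in replicate 1 and 1032 in replicate 2. An absent pooled candidate was therefore no measure of low signal in the replicates at these genes.

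**Figure D1:**
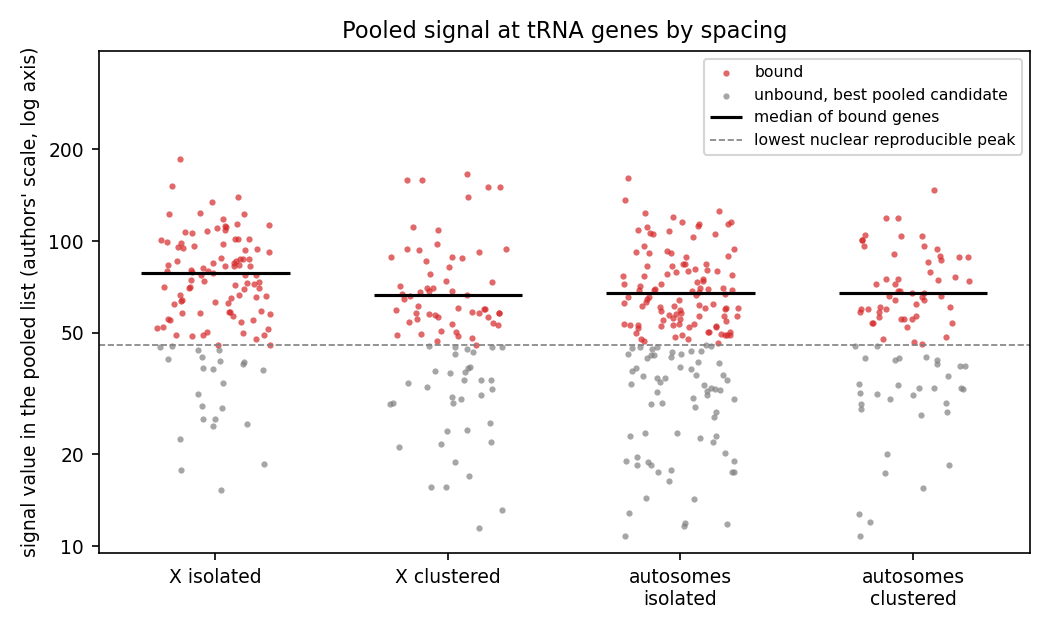
Pooled signal value (authors' scale, log axis) at each tRNA gene of X and of the autosomes, split into isolated and clustered genes. Red points are bound genes, grey points the best pooled candidate of unbound genes, black bars the medians of bound genes (78.8 and 66.4 on X, 67.5 and 67.4 on the autosomes), and the dashed line the lowest nuclear reproducible peak at 45.6.

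The replicates gave like shares of bound X genes and ordered them only partly alike. Among the 2179 strongest nuclear candidates of each list, replicate 1 had a summit at 142 of the 276 X genes (51.4%) and replicate 2 at 139 (50.4%). On the autosomes the counts were 145 (43.2%) and 138 (41.1%) of 336. Of the 154 bound X genes, 128 ranked within 2179 in replicate 1, 124 in replicate 2, 100 in both (64.9%, interval 57.1 to 72.0%) and 2 in neither. For bound autosomal genes the share high in both was 60.7%. Of the 122 unbound X genes, 2 ranked within 2179 in both replicates and 27 in 1 or both. Ranks spread widely within each class. Bound genes had a median rank of 1246 in replicate 1 (299 to 6495) and 1176 in replicate 2 (221 to 21045). Unbound genes with a candidate had medians of 3495 (443 to 26993) and 4858 (1032 to 28370). The bound call rests on the same 2 replicates pooled and on their agreement. Better replicate ranks at bound genes therefore follow largely from the rule and are a description only.

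Counted by peaks, 101 of the 147 peaks at X tRNA genes (68.7%) overlapped one of the 2179 strongest candidates in both replicates, by at least 1 bp. Of the nuclear peaks at no tRNA gene, 1316 of 1879 (70.0%) did. Across the 143 bound X genes with a candidate in both replicates, the Spearman correlation of signal was 0.38 and the Pearson correlation on the log2 scale was 0.34. Across all 189 X genes with a candidate in both, these were 0.60 and 0.60. The bound genes were selected by the pooled list of the same replicates, with pooled signals of at least 45.6. Their correlation is therefore over a narrower range than that of all 189 genes. The correlations are across genes, many of which share sequence, and are descriptions only.

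**Figure D2:**
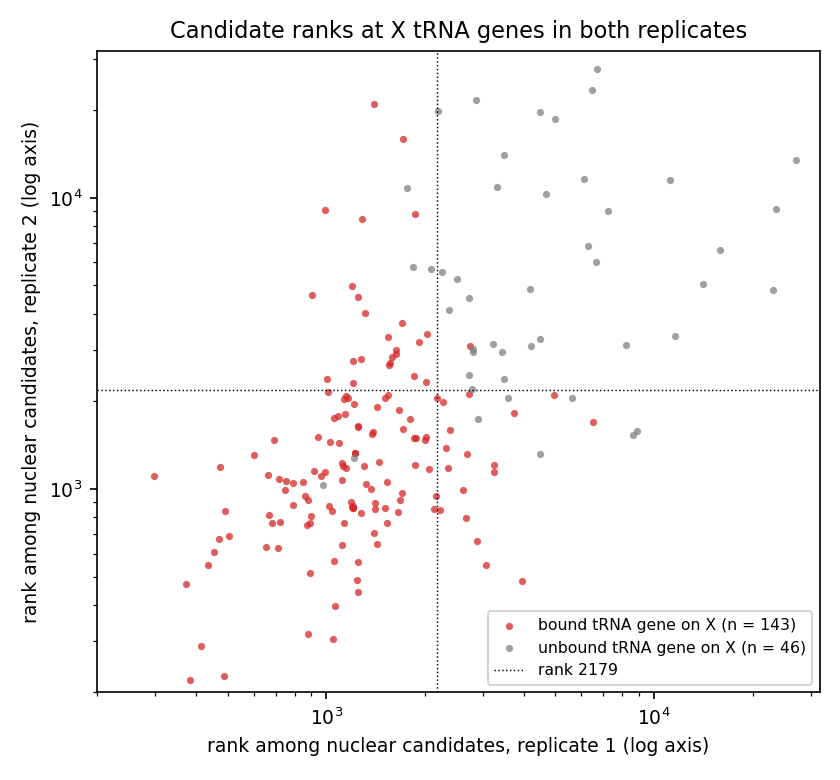
Rank of the best candidate at each X tRNA gene in replicate 1 (horizontal) and replicate 2 (vertical), on log axes where 1 is the strongest, for the 143 bound (red) and 46 unbound (grey) genes with a candidate in both replicates. Dotted lines mark rank 2179; most red points lie below and left of both lines, and 2 grey points do.

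Of the 147 distinct summits at X tRNA genes, 98 (66.7%) lay inside a tRNA gene, while a gene of median length takes up 26.5% of the window in which a summit counts. Measured along the strand of the gene from its first base, the median summit position at the 154 bound X genes was 20 bp (interval 14 to 31), with quartiles at 2 and 59 bp. The median for the 163 bound autosomal genes was 24 bp. Counted by gene, with a shared summit counted for each of its genes, the summit lay inside the gene at 98 of the 154 bound X genes (63.6%), upstream at 34 and downstream at 22. A tRNA gene is short beside these peaks: the median X tRNA gene measured 72 bp among bound genes, while 143 of the 147 peaks were 276 bp wide. The lists therefore place the signal at the gene and cannot assign it to the A box, the B box or the upstream flank. In each replicate's own list the median position was 28 bp.

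**Figure D3:**
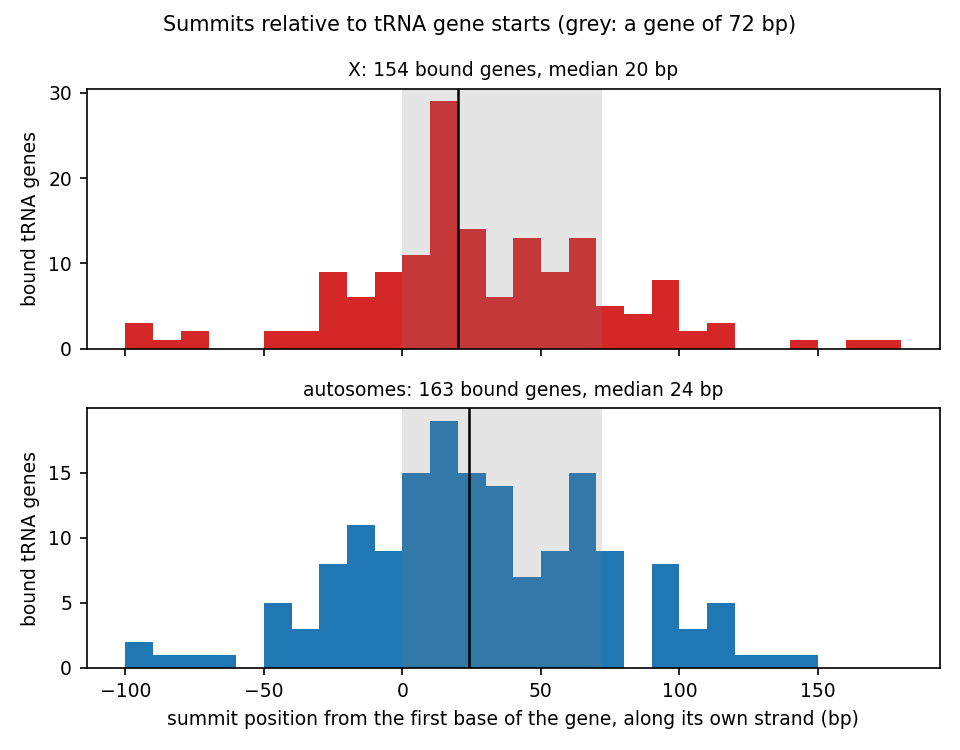
Number of bound tRNA genes by summit position from the first base of the gene along its own strand, in bins of 10 bp, on X (top) and on the autosomes (bottom). The grey band is a gene of 72 bp and the black line the median, 20 bp on X and 24 bp on the autosomes.

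Few X tRNA genes, bound or not, lay near a coding gene start: 12 of 154 bound genes (7.79%) and 12 of 122 unbound ones (9.84%) were within 500 bp of one. Of the 147 peaks, 11 (7.48%) had their summit within 500 bp of the start of a protein-coding gene, whereas 38 of the 97 other X peaks (39.2%) did. The median distance from bound tRNA genes to the nearest coding start was 2071 bp, against 1856 bp from unbound ones.

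Spacing went with the share bound. A gene was called clustered if another tRNA gene lay within 1000 bp and isolated if none did. Of the 141 isolated X genes, 96 were bound (68.1%, interval 60.0 to 75.2%), against 58 of the 135 clustered ones (43.0%, 34.9 to 51.4%). The difference was 25.1 percentage points (13.4 to 35.9). The shares were 61.0% and 41.5% in replicate 1, a difference of 19.5 points (7.72 to 30.6), and 61.7% and 38.5% in replicate 2, a difference of 23.2 points (11.4 to 34.1). On the autosomes, 46.0% of isolated and 54.5% of clustered genes were bound, a difference of -8.50 points (-19.8 to 3.11). Bound isolated X genes had a median pooled signal of 78.8 (interval 70.8 to 84.9) and bound clustered ones 66.4 (58.4 to 71.0). Of the bound isolated genes 68 of 96 ranked high in both replicates, and of the bound clustered genes 32 of 58.

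The size of that difference depended on what was counted. Joined into chains of neighbours with gaps of at most 1000 bp, the clustered genes formed 54 chains of 2 or more. At least 1 gene was bound in 36 of these chains (66.7%, interval 53.4 to 77.8%), so an isolated gene and a chain differed by 1.42 points (interval -12.3 to 16.5). A chain counts as bound through any of its genes, so it has more places for a summit than an isolated gene. On the autosomes 46.0% of isolated genes and 71.7% of chains had a bound gene. In 14 X chains every gene was bound.

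Close neighbours seldom had a summit each. In the pooled list and in each replicate's list the least distance between neighbouring candidate summits on X was 199 bp. Among the 43 pairs of neighbouring X genes with a gap of at most 300 bp, both genes were bound by peaks of their own in 1, both by a shared peak in 7, only 1 gene in 15 and neither in 20. Among the 38 pairs with gaps of 301 to 1000 bp, both had peaks of their own in 9, 1 gene was bound in 16 and neither in 13. By gap to the nearest tRNA gene, 4 of 6 X genes were bound at gaps of at most 100 bp, 35.2% of 71 at 101 to 300 bp, 29 of 58 at 301 to 1000 bp, 33 of 44 at 1001 to 5000 bp, 56.3% of 32 at 5001 to 20000 bp and 69.2% of 65 beyond. The share was thus lowest at gaps of 101 to 300 bp, and it did not climb steadily with distance. On the autosomes it was also lowest there, at 15 of 40 genes (37.5%), close to 17 of 45 (37.8%) at 1001 to 5000 bp. There were 25 autosomal pairs with gaps of at most 300 bp. Both genes had peaks of their own in 0 of these and a shared peak in 10.

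In 12 unbound X genes, all clustered, a reproducible summit lay beyond 100 bp but within 250 bp, and the peak overlapped the gene in 5. T06H11.t2 and T06H11.t3, arginine tRNA genes on opposite strands in an intron of unc-58, which encodes a potassium channel, are an example. A reproducible peak of signal 52.9 had its summit between them, 112 bp from T06H11.t2 and 109 bp from T06H11.t3, so neither was called. A protein-coding gene start also lies near, 468 bp from the middle of T06H11.t2 and 175 bp from that of T06H11.t3. Whether the peak belongs to the tRNA genes or to that start was not tested. With 250 bp on each side, isolated genes stayed at 68.1% and clustered genes reached 51.9%, a difference of 16.2 points. No unbound isolated gene was overlapped by a reproducible peak.

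The 7 shared peaks illustrate paired genes. F15G9.t1 and F15G9.t2, alanine tRNA genes 86 bp apart in an intron of him-4, which encodes the extracellular matrix protein hemicentin, shared a peak of signal 159 with its summit inside F15G9.t1. M02F4.t2 and M02F4.t1, divergent genes for glutamate and glycine 116 bp apart, shared a peak of 150.2. Lower shared peaks served F02D10.t1 and F02D10.t2 at 94.4, T10B10.t2 and T10B10.t1 at 88.4, C16B8.t2 and C16B8.t3 at 60.1, R03E1.t2 and R03E1.t1 at 58.1, and Y7A5A.t4 and Y7A5A.t1 at 56.2. At F15G9 the best candidate of each replicate also had its summit inside F15G9.t1, and F15G9.t2 had no candidate in replicate 2. Each shared peak overlapped both of its genes, so the lists do not say how the signal was divided between them.

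The largest X clusters had 6 genes each and differed from one another. In the F22F1 cluster of mixed tRNA genes, F22F1.t3 (aspartate) was bound at 70.0, F22F1.t6 (methionine) at 88.2 and F22F1.t7 (isoleucine) at 60.3. F22F1.t5 (aspartate) had an unbound candidate of 32.7, and the serine genes F22F1.t2 and F22F1.t4 had no pooled candidate. In the F28H6 cluster of 6 identical histidine tRNA genes none was bound, and only F28H6.t2 at 31.0 and F28H6.t5 at 25.4 had pooled candidates.

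The F28H6 genes differ in how much of their surroundings is repeated in the genome. At F28H6.t3 and F28H6.t4, 0% of the 36-base words in the gene and its flanks of 100 bp are unique in the nuclear genome. The share is 11.8% at F28H6.t6, 33.3% at F28H6.t7, 50.6% at F28H6.t5 and 73.8% at F28H6.t2, which is above the lowest share at a bound X gene, 69.2%. On X, 13 genes had under 60% of such words unique, a limit that was not planned. It lies below the lowest share at any bound X gene. That 0 of the 13 were bound, against 55.8% of all X genes, therefore follows from the limit. Of the 13, 12 were clustered and 11 had no pooled candidate. The treatment of reads with several matches is not given, and its part in the missing calls was not tested. Without these 13 genes, 68.6% of isolated and 47.2% of clustered X genes were bound, a difference of 21.4 points. Over all bound X genes the median share of unique words was 79.7%, and over unbound ones 79.4%.

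**Figure D4:**
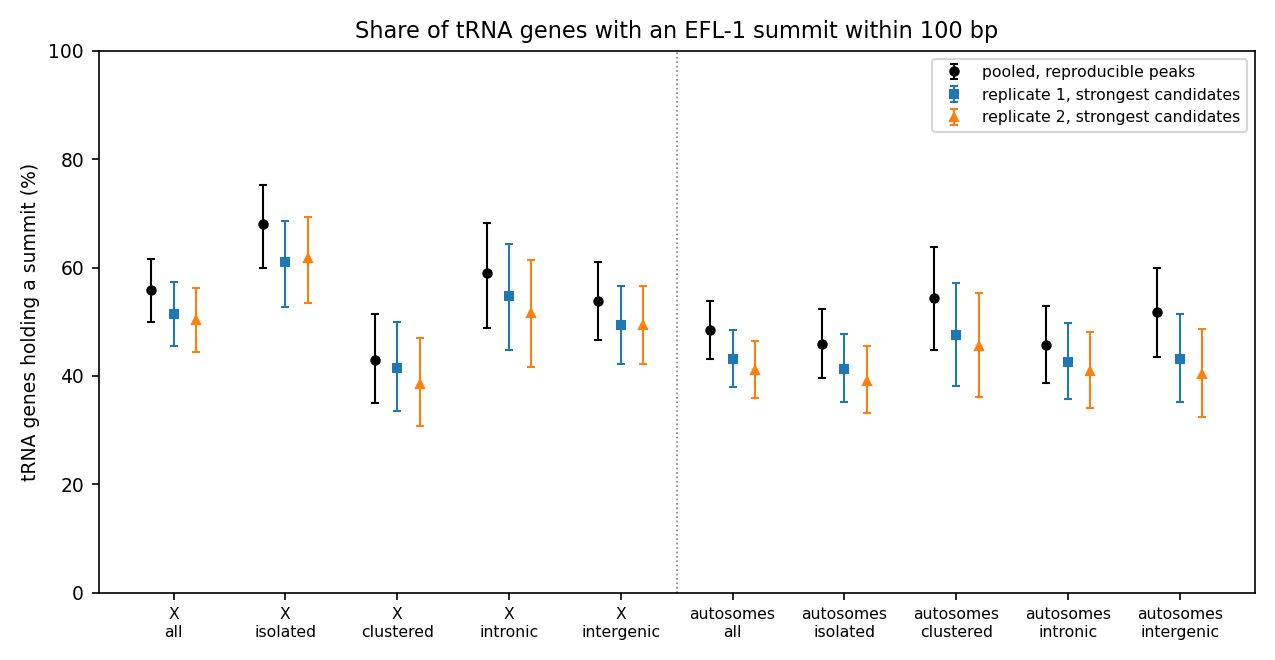
Share of tRNA genes (%) with a summit within 100 bp, for all, isolated, clustered, intronic and intergenic genes of X (left) and of the autosomes (right). Circles are the pooled reproducible peaks, squares and triangles the equally many strongest candidates of replicates 1 and 2, and bars 95% Wilson intervals; on X the isolated genes stand above the clustered ones in all 3 lists.

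Intronic and intergenic genes were bound in similar shares, and the difference between them was within its counting error. Of the 95 X tRNA genes within introns of protein-coding genes, 56 were bound (58.9%, interval 48.9 to 68.3%), against 97 of 180 intergenic genes (53.9%, 46.6 to 61.0%). The difference of 5.06 points had an interval of -7.26 to 16.9. Genes on the strand of their host were bound in 29 of 50 cases and those on the opposite strand in 27 of 45. Among isolated genes, 67.8% of intronic and 67.9% of intergenic ones were bound, and among clustered genes 44.4% of intronic and 42.4% of intergenic ones. Median pooled signal was 71.2 at bound intronic genes and 73.4 at bound intergenic ones. One bound gene, C28G1.t1 for glutamate, overlapped an exon of its neighbour C28G1.2 and had a signal of 114.

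Copies of 1 sequence were often bound at one place and not at another. The 276 X genes have 106 distinct sequences, and 33 of these occur at 2 or more X genes. Of the 33, 27 had both bound and unbound copies, 5 were bound at every copy and 1 at none. The Pro family with anticodon TGG had 13 identical X copies, of which 4 were bound, with signals of 45.6 at C16B8.t1 to 123 at H06A10.t1. The Lys family with anticodon CTT had 10, of which 8 were bound, with signals of 49.0 at F55F3.t1 to 118 at W03G11.t1. Genes of identical sequence thus carried different calls.

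The arginine genes with anticodon ACG have 10 identical copies, all on X. All 6 isolated copies were bound: F09B9.t1 at 101, F12D9.t4 at 94.7, F09B9.t2 at 80.2, T01C1.t1 at 73.4, C14F11.t1 at 59.1 and C03A3.t1 at 58.4. In replicate 1 these isolated copies ranked from 664 to 1877 and in replicate 2 from 1054 to 2380. Of the 4 clustered copies, only C18A11.t2 was bound, at 50.5. The others were T06H11.t2 and T06H11.t3, which flank the summit described above, and K01A12.t3, whose pooled candidate had a signal of 29.4 and which ranked 6285 in replicate 1 and 6829 in replicate 2. F09B9.t1 and K01A12.t3 are shown with 100 bp on each side because their genes are identical and only one was bound. Capitals mark the gene and lower case its flanks, from RefSeq (WBcel235), 5′ to 3′ along the gene.
F09B9.t1, bound (chrX:10145056-10145328, + strand): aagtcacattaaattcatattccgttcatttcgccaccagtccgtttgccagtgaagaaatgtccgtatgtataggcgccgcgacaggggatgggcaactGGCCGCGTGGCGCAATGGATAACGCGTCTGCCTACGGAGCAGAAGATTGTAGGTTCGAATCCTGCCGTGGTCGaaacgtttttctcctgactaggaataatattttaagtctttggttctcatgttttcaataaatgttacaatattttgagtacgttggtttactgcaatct
K01A12.t3, unbound (chrX:8624360-8624632, - strand): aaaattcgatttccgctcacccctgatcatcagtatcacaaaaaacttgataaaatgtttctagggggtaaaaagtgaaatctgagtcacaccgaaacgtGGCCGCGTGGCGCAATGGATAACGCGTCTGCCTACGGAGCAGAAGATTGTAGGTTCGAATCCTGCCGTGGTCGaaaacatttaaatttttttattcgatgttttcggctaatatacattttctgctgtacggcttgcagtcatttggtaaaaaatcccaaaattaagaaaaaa

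The split by spacing was also present within families of identical sequence on X. These are genes and calls already counted above, so this is no separate support for the split. Of the 16 sequences with at least 2 isolated and 2 clustered X copies, the isolated copies had the higher bound share in 13, the shares were equal in 3, and the clustered copies were higher in 0. Pooled over these families, 46 of 61 isolated and 27 of 74 clustered copies were bound (75.4% and 36.5%). Over 17 such autosomal families the isolated copies were higher in 7 and the clustered copies in 9. When a clustered X copy was counted as bound if any gene of its chain was, isolated copies were higher in 10 families and clustered copies in 5, so the pattern was weaker on that count. With 250 bp on each side, or with a peak overlapping the gene, isolated copies were higher in 12 and clustered copies in 1. With at least 1 X copy of each kind required there were 24 families. Isolated copies were higher in 15 of these, equal in 6 and lower in 3.

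The 9 identical X copies of the leucine gene with anticodon AAG show the spread among like genes. Of these, 5 were bound, with pooled signals of 99.3 at C04E7.t1, 92.0 at C05E7.t3, 66.4 at F14B8.t1, 58.3 at C05C9.t1 and 54.3 at F08F1.t2. The unbound copies D1009.t2 and C48C5.t4 had candidates at 45.1 and 44.1, close to the threshold, and F08F1.t1 had 25.2. Of the 9 copies, 7 were isolated and 4 of these were bound, so isolated copies of this sequence were found both bound and unbound.

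Among amino acids, alanine stood at one end and histidine at the other. All 13 alanine genes of X were bound (interval 77.2 to 100%), with pooled signals of 49.2 to 159 and a median of 83.0, and in each replicate's strongest candidates 10 of the 13 had a summit. Of the 13, F15G9.t2 counted only through the shared peak whose summit lies inside F15G9.t1, and it had no candidate in replicate 2. On the autosomes 13 of 21 alanine genes were bound. Of the 9 histidine genes, 2 were bound (22.2%, interval 6.32 to 54.7%), C06G1.t1 at 102 and ZC449.t1 at 56.9, and 6 of the 7 unbound ones are the F28H6 cluster. The autosomal count for histidine was 3 of 11. Between these ends, the bound counts on X were 9 of 12 for aspartate, 13 of 18 for lysine, 10 of 14 for threonine, 11 of 17 for leucine, 12 of 20 for glycine, 13 of 23 for glutamate, 10 of 18 for serine, 11 of 27 for arginine, 8 of 20 for proline and 6 of 15 for glutamine. They were 8 of 14 for valine, 6 of 13 for isoleucine, 4 of 8 for methionine, 5 of 8 for tyrosine, 4 of 7 for cysteine, 3 of 6 for asparagine, 3 of 6 for phenylalanine and 3 of 5 for tryptophan. Most of these intervals overlap, so the order in the middle is not resolved.

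Among the arginine genes of X, 7 of 13 with anticodon ACG were bound (interval 29.1 to 76.8%), 3 of 4 with TCT, 1 of 2 with CCT, 0 of 6 with TCG, 0 of 1 with CCG and 0 of 1 with CGA. The gene with CGA is F49E7.t1, whose anticodon does not match its arginine product. The 6 genes with TCG had pooled candidates at 4, F38E9.t2 at 40.1, F49E7.t2 at 35.0, C34E11.t1 at 28.8 and C36C9.t2 at 26.1. Of the 6, 2 had a summit among the strongest candidates of replicate 2. All 3 autosomal genes with TCG were bound. A count of 0 of 6 allows a share of up to 39.0% by its Wilson interval, which overlaps that of ACG, and the difference was not tested.

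**Figure D5:**
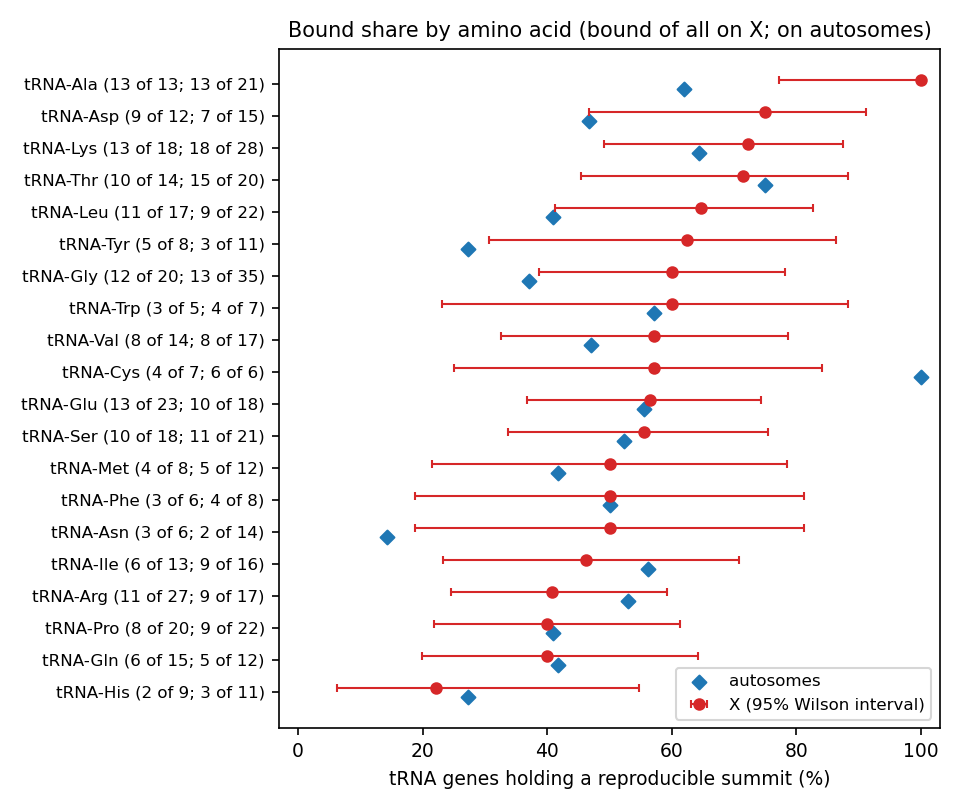
Share of X tRNA genes holding a reproducible summit (%) by amino acid, with 95% Wilson intervals (red), beside the share on the autosomes (blue diamonds). Labels give bound of all genes on X and then on the autosomes; alanine is highest on X with 13 of 13 and histidine lowest with 2 of 9.

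The few genes whose anticodon could not be matched to a named product were unbound. These were 5 X genes, F49E7.t1, C28G1.t5, F47E1.t3, K02D3.t1 and ZK678.t5. RefSeq names no product for 3 of them, C28G1.t5, F47E1.t3 and K02D3.t1, so for these there was nothing to match. None of the 5 was bound, against 55.8% of all X genes bound, and F49E7.t1 alone had a pooled candidate, at 23.9. C28G1.t5 is also among the genes of repeated sequence, with 51.4% of its 36-base words unique. Of the 12 X genes with an annotated intron, 8 were bound.

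Bound and unbound genes held the B box core in similar shares. The B box core GTTCGANNC, searched on the gene strand, was present without mismatch in 110 of 154 bound X genes (71.4%, interval 63.8 to 78.0%) and in 90 of 122 unbound ones (73.8%). With 1 mismatch allowed it was in all 154 and all 122. On the autosomes the exact core was in 74.2% of bound and 69.4% of unbound genes. Of all stretches of 72 bp of X, each strand taken apart, 0.242% hold it. The terminator string TTTT lay within 25 bp after the gene end in 154 of 154 bound and 119 of 122 unbound genes, while 29.9% of 25 bp stretches of X hold it on a given strand.

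E2F strings were uncommon at X tRNA genes, bound or not. The strings searched on both strands were TTTCCCGC and TTTCGCGC and TTTGCCGC and TTTGGCGC. One of them lay in the gene or its flanks of 100 bp in 9 of 154 bound X genes (5.84%, interval 3.10 to 10.7%) and 10 of 122 unbound ones (8.20%). In equal windows along X the share was 3.22%, below that of both classes though inside the interval of the bound genes. Of the 2179 nuclear reproducible peaks, 374 (17.2%) had one within 100 bp of the summit, a shorter window than that of a gene. In none of the 19 X genes with a string did it lie wholly within the tRNA gene. A string across a gene edge was not counted as inside. Many of the 19 are isoleucine tRNA genes with anticodon AAT, bound ones such as R11B5.t3 and C42D8.t1 and unbound ones such as C29F7.t1 and B0344.t2. The X shares thus partly count like copies of the same family. On the autosomes 18 of 163 bound and 3 of 173 unbound genes had one. The median GC content of gene and flanks was 41.0% at bound and 39.2% at unbound X genes, and 45.2% and 43.0% on the autosomes.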

How the data were processed

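Peak lists of EFL-1 chromatin immunoprecipitation were analysed from 2 biological replicates forming 1 group. Per the descriptions deposited with the files, each replicate had candidate peaks with background, the pooled reads had another such list, and 1 optimal list had passed a threshold on the irreproducible discovery rate. The signal value is the authors' score, deposited without a stated scale. The −log10 q-value was deposited but not used, since it is at its ceiling in the thresholded list. Summits were taken from the deposited offset of each peak. The sources used here do not state the aligner, peak caller, threshold, read length or how multiply matching reads were handled. Lists on build ce10 were not used.

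Peaks on ce11 were compared with Ensembl release 115 (WBcel235). All 612 nuclear tRNA genes matched RefSeq with the same coordinates, which gave products and sequences, and anticodons were read from the sequence. The 28 mitochondrial peaks were left out, leaving 2179 of 2207. Shares have 95% Wilson intervals, differences Newcombe intervals and medians order-statistic intervals. Genes share sequence and peaks, so no p-value was computed. The counting steps were checked on simulated data.

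The members and lists were chosen with earlier results of these data known. Genes named by rule are the 12 with the highest signal, the 5 on each side of the threshold, the largest clusters, genes sharing a peak, the 4 with the best replicate rank but no pooled candidate, and the extremes of the 5 largest anticodon families. The alanine, arginine, histidine and leucine families, genes near a peak, genes of repeated sequence and unmatched genes were named after their values were seen. Computation used Python 3.11.15, numpy 2.4.6, pandas 2.3.3, scipy 1.17.1, statsmodels 0.14.6 and matplotlib 3.10.9.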

Additional observations from a re-analysis of the deposited data

How the results depend on the processing

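With summits required inside the gene body (0 bp), 98 of 276 X and 99 of 336 autosomal genes were bound. The replicate candidates were then also required to have their summit inside the gene body. On that stricter count, 33.7% of these bound X genes ranked high in both replicates. With the stronger 50% of the peaks 62 of 276 X and 49 of 336 autosomal genes were bound, with a median X signal of 98.2. With each distinct sequence counted once, 67 of 106 sequences on X (63.2%) had a bound X gene. On the autosomes 67 of 137 sequences (48.9%) had a bound autosomal gene. The share of bound X genes high in both replicates was 89.0% at a rank limit of 5000 and 20.8% at the best 50% of ranks. With each chain counted once, an alternative chosen after seeing the data, the difference by spacing was 1.42 points. It was 14.1 points with neighbours up to 5000 bp and 16.2 points with 250 bp on each side. With 1 mismatch allowed the B box core was in 100% of bound X genes. The median share of unique words was 84.8% with words of 50 bases. The cause of these changes was not tested. Leaving out 1 replicate gave 139 to 142 bound X genes, 138 to 145 bound autosomal genes, spacing differences of 19.5 to 23.2 points, intronic minus intergenic differences of 2.13 to 5.29 points and median summit positions of 25 to 31 bp. The other 46 values stayed within their intervals or within 1.5 times the reported count, and no direction turned round. No paired analysis was possible because there is 1 group. Without read counts, depth limits what the absence of a call can show.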
